A study of Mus musculus with 6 samples.

Results

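The epithelial sodium channel and its aldosterone effectors were represented by 10 genes, chosen by symbol with earlier results of these data known. These were the channel subunits Scnn1a, Scnn1b and Scnn1g, the channel-activating protease Prss8, the ubiquitin ligase Nedd4l, the kinase Sgk1, the corticosteroid receptors Nr3c2 and Nr3c1, the glucocorticoid-inactivating enzyme Hsd11b2 and the steroid-induced gene Tsc22d3. They carried 13 of the 55681 probes of the array, and they were 10 of 20887 genes with a named probe. Every probe of the 10 genes was followed in all samples. Nedd4l, Nr3c1 and Prss8 had 2 probes each, here called probe 1 (the one with the higher mean Cy5 signal) and probe 2, and the other genes had 1.

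RNA of cells labelled as collecting duct (CD) cells was compared between newborn mice with and without Bdkrb2, the gene of the bradykinin B2 receptor, on 6 Agilent 2-colour arrays. The 3 KO samples came from Hoxb7cre+; Bdkrb2 f/f; R26RtdTomato kidneys and the 3 WT samples from Hoxb7cre+; R26RtdTomato; Bdkrb2+/+ kidneys, all of the C57BL/6 strain, and on day 1 after birth sorting kept the GFP and dsRED positive cells. All samples carry the label of food with 5% sodium, and no group on ordinary food was among them, so both genotypes share the labelled diet and the Cre. The cells were taken on day 1 after birth, so the label is no measure of what the pups themselves ate. Hoxb7-driven Cre acts in the ureteric bud lineage and not in the nephron, so the deletion is confined to that lineage by design, and the matings given in the labels (both parents Bdkrb2 F/F) yield no wild-type pups, so litter and genotype cannot be told apart. The sample RNA was labelled with Cy5, and the RNA of WT replicate 1 (WT1) was labelled with Cy3 on every array as a common reference. Nothing in the labels says how many pups went into a sample, so p-values measure the spread between these samples. The Bdkrb2 probe did not check the genotype labels: it was never above background, with Cy5 at 1.04, 1.11 and 1.05 times the local background in WT replicates 1 to 3 and 0.972, 1.03 and 1.01 times in KO. Values in the text are log2 ratios of Cy5 over Cy3 after loess normalisation, and differences are KO minus WT.

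In the distal nephron and collecting duct, the channel formed by the α, β and γ subunits admits sodium from the urine across the apical membrane of principal cells. Aldosterone, bound to the mineralocorticoid receptor, raises its activity in part through the kinase Sgk1, which phosphorylates Nedd4l and so keeps that ligase from removing the channel from the membrane. Hsd11b2 inactivates glucocorticoids in these cells and leaves the mineralocorticoid receptor to aldosterone. Both receptors bind the same palindromic DNA element, which is why a search for it in the promoters is shown first.

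Promoter windows of 300 bases, from 250 before to 50 after an annotated start, were taken from the RefSeq table (GRCm38.p6). They were searched for 5 of the 10 genes (Scnn1b, Scnn1g, Sgk1, Nr3c2 and Tsc22d3), with 12 windows in all, 6 of them for Sgk1 and 3 for Tsc22d3. Member windows on the chromosome that carries Nedd4l and Nr3c1 were left out of the search. The count over the whole table kept that chromosome, so the member set and the whole table were not filtered alike. The receptor element searched was the half-site AGAACA, then any 3 bases, then its reverse complement TGTTCT, which makes the element the same on both strands. It was found in 1 of the 12 windows, the fifth of the Sgk1 starts, and in 3 of the 32851 windows of the whole table (0.00913%). Its half-site AGAACA, searched on both strands and so also as TGTTCT, was in 4 of the 12 windows (33.3%) and in 19% of all windows, and each full element holds a pair of half-sites. Those 4 were 3 Sgk1 windows and 1 Tsc22d3 window. The Sgk1 window with the element, the Tsc22d3 window with a half-site and the Scnn1b window, which had no match, are shown, so that a pair of steroid-induced genes whose changes are compared in the results stands beside a channel subunit. Capitals mark half-sites, and the window of Sgk1 lies at chr10:21993640-21993939 (+ strand), that of Tsc22d3 at chrX:140600473-140600772 (- strand) and that of Scnn1b at chr7:121864788-121865087 (+ strand).
Sgk1: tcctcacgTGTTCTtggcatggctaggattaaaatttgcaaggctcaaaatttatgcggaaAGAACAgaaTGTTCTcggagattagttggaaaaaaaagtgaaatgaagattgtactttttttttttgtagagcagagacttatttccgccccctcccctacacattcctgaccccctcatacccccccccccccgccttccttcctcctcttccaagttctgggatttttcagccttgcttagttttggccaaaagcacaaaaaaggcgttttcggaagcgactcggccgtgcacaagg
Tsc22d3: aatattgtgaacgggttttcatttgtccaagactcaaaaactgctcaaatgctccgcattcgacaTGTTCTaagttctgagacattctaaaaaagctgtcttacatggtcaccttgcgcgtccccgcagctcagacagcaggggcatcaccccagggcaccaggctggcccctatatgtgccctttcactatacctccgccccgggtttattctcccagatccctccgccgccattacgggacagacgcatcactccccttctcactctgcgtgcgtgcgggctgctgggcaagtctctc
Scnn1b: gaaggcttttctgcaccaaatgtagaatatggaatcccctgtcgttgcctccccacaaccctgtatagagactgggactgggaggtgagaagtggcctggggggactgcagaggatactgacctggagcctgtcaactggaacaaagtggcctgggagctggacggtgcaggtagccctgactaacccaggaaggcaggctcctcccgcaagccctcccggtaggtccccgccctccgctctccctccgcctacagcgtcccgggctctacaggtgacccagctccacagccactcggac
In the Sgk1 window the half-sites start 242, 189 and 180 bases before the annotated start, the last pair forming the element, and in the Tsc22d3 window the single half-site starts 185 bases before it. Which start is used in these cells was not measured, and a match of letters is not a bound site.

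Most of the 10 genes were lower in KO cells. Scnn1a fell 4.81-fold, Scnn1b 3.12-fold, Sgk1 3.29-fold, Nedd4l 2.57-fold by probe 1 and Prss8 2.46-fold by probe 1. Hsd11b2 was 1.99-fold lower. Nr3c1 was 1.82-fold lower by its dimmer probe 2, whereas its probe 1 (1.44-fold lower) did not pass the test. For Nr3c2 the size of the change depended on the background correction. Tsc22d3 was the only tested gene of the set with a difference above 0, which did not pass the test. Of the 13 probes 12 passed the filter (a Cy5 spot that Feature Extraction marked as well above background on 3 or more arrays), covering 9 genes, and Scnn1g was not measurable. Of the 12 probes tested with limma, 10 were called lower (adjusted p under 0.05 over all 29808 probes tested) and 0 higher, with no further probe higher at an unadjusted p under 0.05. Over all probes tested 14.3% were called lower and 11.1% higher, 25.4% in either direction. By the brightest tested probe of each gene, 7 of 9 genes were called lower, Nr3c2 among them, and Nr3c1 and Tsc22d3 were not called. Of all named genes taken in the same way 18.6% were called lower. The median difference was -1.13 over the 12 probes and 0.00 over all probes tested. The Nr3c2 probe passed the filter through the WT arrays alone, so it had to be lower in KO, and without it 9 of 11 probes were called lower, with a median of -1.26. On 11 of the 12 probes all 3 KO values lay below all 3 WT values, which was so for 23.7% of all probes tested, and 21.5% had all KO values above all WT values.

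**Figure D1:**
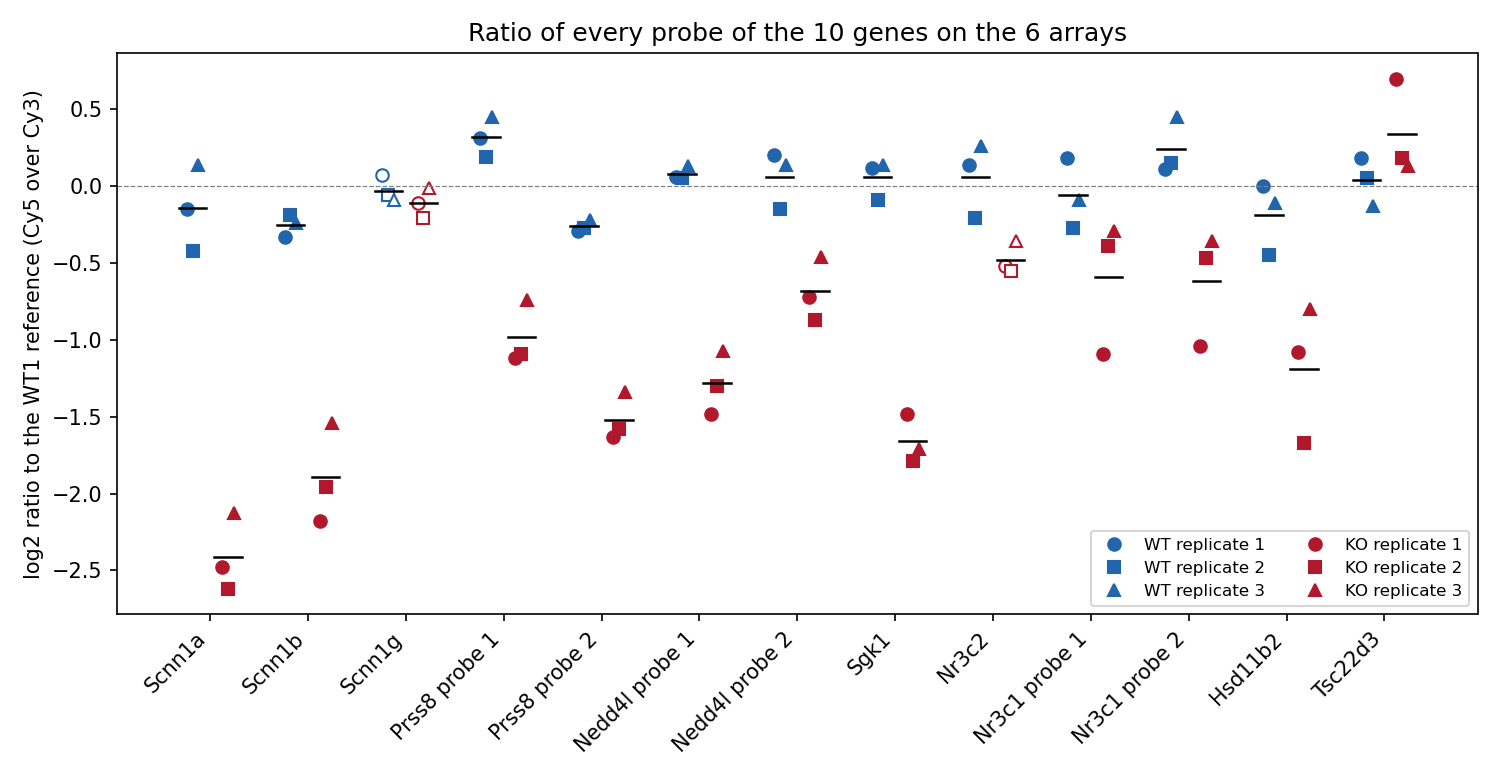
Log2 ratio of Cy5 (sample) over Cy3 (WT1 reference) after loess normalisation for every probe of the 10 genes, with 1 point per array, a bar at the group mean and open symbols where the group's Cy5 signal was not above background. The 3 KO values lie below the 3 WT values for every tested probe except Tsc22d3, with mean differences of -2.27 for Scnn1a and -0.53 for Nr3c1 probe 1.

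Scnn1a gave the widest gap of the tested probes, and Scnn1b came after Sgk1. For Scnn1a, which encodes the α subunit needed for the channel to reach the membrane, the log2 ratios read -0.15, -0.42 and 0.14 in WT replicates 1 to 3 and -2.48, -2.62 and -2.13 in KO replicates 1 to 3. The groups were far apart, and the difference was -2.27 ± 0.18 (SE, n = 3 per group, limma adjusted p = 0.000376). Scnn1b, the β subunit, had ratios of -0.33, -0.19 and -0.24 in WT and -2.18, -1.96 and -1.54 in KO. All 3 KO arrays were again below every WT array, by -1.64 ± 0.16 (limma adjusted p = 0.000576). KO replicate 3 was the highest of the KO arrays for both subunits. Scnn1a differed from Scnn1b in its change by -0.62 on the log2 scale (95% interval -1.21 to -0.04 from the spread over arrays, 4 degrees of freedom), with an exact permutation p of 0.1, the smallest that 3 against 3 allows, and 0.167 after adjustment over 5 pairs compared. The Scnn1g probe, for the γ subunit, stayed at background in both channels on all 6 arrays. Its Cy5 signal was 1.12, 1.22 and 1.15 times the local background in WT and 1.10, 0.972 and 1.01 times in KO, so no fold is given and no direction can be read for that subunit, and 2 planned pairs with Scnn1g were not compared.

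Prss8, also called prostasin, is a membrane-anchored serine protease that raises channel activity by cleavage of the γ subunit. Probe 1 read 0.31, 0.19 and 0.45 in WT and -1.12, -1.09 and -0.74 in KO. Its groups were separated by -1.30 ± 0.14 (limma adjusted p = 0.000649). Probe 2 of the same gene read -0.29, -0.27 and -0.22 in WT and -1.63, -1.58 and -1.34 in KO, a difference of -1.26 ± 0.11 (limma adjusted p = 0.000448). The probes had different offsets from 0 in WT, positive for the first and negative for the second, but nearly the same change. On the array of WT replicate 1, where the same RNA was in both channels, the ratios of the 12 tested probes lay between -0.33 and 0.31, so ratios of that size occurred with no difference in RNA.

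Nedd4l and Sgk1 act in opposite directions on the channel at the membrane, and both transcripts were lower. Nedd4l probe 1 gave ratios of 0.06, 0.05 and 0.13 in WT and -1.48, -1.30 and -1.07 in KO, a difference of -1.36 ± 0.12 (limma adjusted p = 0.000473). Probe 2, a much dimmer spot, gave 0.20, -0.15 and 0.14 in WT and -0.72, -0.87 and -0.46 in KO, a difference of -0.75 ± 0.15 (limma adjusted p = 0.0082). The Feature Extraction ratios of probe 2 were 0.25, -0.07 and 0.07 in WT against -1.24, -1.43 and -1.10 in KO, which gives -1.34, close to probe 1. The offset of 50 added to both channels in the background correction draws ratios of dim probes towards 0 by construction. Blocking on slide row, where a single WT array informs the difference, gave -0.88 for probe 2, which was then no longer called (limma adjusted p = 0.0575).

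Sgk1, the kinase induced by aldosterone and glucocorticoids, had ratios of 0.12, -0.09 and 0.14 in WT and -1.48, -1.79 and -1.71 in KO. The groups were narrow and did not overlap, and the difference was -1.72 ± 0.12 (limma adjusted p = 0.000357). Sgk1 and Nedd4l differed in their change by -0.35 (95% interval -0.93 to 0.22, exact permutation p = 0.2, adjusted p = 0.25 over the 5 pairs). On KO replicate 1 the ratios of Sgk1 and Nedd4l were nearly equal (0.01 apart), and on KO replicates 2 and 3 Sgk1 was lower by 0.50 and 0.64.

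The receptors were measured with less certainty. Nr3c2, the mineralocorticoid receptor, was dim, with ratios of 0.14, -0.21 and 0.26 in WT and -0.52, -0.55 and -0.36 in KO. The sample channel cleared the background on every WT array but on no KO array, whereas the WT1 reference in Cy3 cleared it on all 6. The mean normalised log2 Cy5 signals were 6.68 in WT and 6.21 in KO, a 1.39-fold difference, which is a point value without an interval. The probe was called lower in KO (limma adjusted p = 0.0265). This is no test of direction, because the probe passed the filter through the WT arrays alone. That call was lost without KO replicate 2, WT replicate 1 or WT replicate 3 (limma adjusted p = 0.0807, 0.0933 and 0.111), with median centring in place of loess (0.0717), which moved the median of all probes from 0.00 to 0.22 and with slide row as a block (0.144). The Feature Extraction ratios, which add no offset, read 0.15, -0.34 and 0.77 in WT against -1.57, -2.12 and -1.45 in KO, a difference of -1.91, so its size depends on the background correction.

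Nr3c1, the glucocorticoid receptor, showed 1 KO array apart from the other two. Probe 1 read 0.18, -0.27 and -0.09 in WT and -1.09, -0.39 and -0.29 in KO, a difference of -0.53 ± 0.22 that did not pass (limma adjusted p = 0.119). Without KO replicate 1 it was -0.28, and with median centring -0.24. Probe 2 read 0.11, 0.15 and 0.45 in WT and -1.04, -0.47 and -0.36 in KO, a difference of -0.86 ± 0.19 (limma adjusted p = 0.0143). Both probes put KO replicate 1 lowest, and probe 2 without that array gave -0.65 (limma adjusted p = 0.00386). The call of probe 2 was lost without WT replicate 3 (limma adjusted p = 0.069), with median centring (0.0673), with Cy5 alone (0.0598) and with slide row as a block (0.186). The change of Nr3c2 was not ranked against those of Nr3c1 and Hsd11b2, since its KO level was at background.

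Hsd11b2 guards the mineralocorticoid receptor and is a marker of aldosterone-sensitive epithelium. Its ratios came to 0.00, -0.45 and -0.11 in WT against -1.08, -1.67 and -0.80 in KO. The groups did not overlap although the KO arrays spread over nearly 1 log2 unit, and the level was 1.99-fold lower in KO (SE of the log2 difference 0.22, limma adjusted p = 0.0147). Feature Extraction ratios came to -0.17, -0.62 and -0.24 in WT against -1.52, -2.43 and -1.42 in KO, a difference of -1.45. The call was lost without WT replicate 1 or WT replicate 3 (limma adjusted p = 0.0605 and 0.0672) and with slide row as a block (0.0834).

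Tsc22d3, also known as GILZ, is a leucine zipper protein induced by glucocorticoids and aldosterone. Tsc22d3 and Sgk1 had 1 probe each, and which of their transcripts these probes read was not determined. Ratios of 0.18, 0.05 and -0.13 in WT stood against 0.70, 0.18 and 0.13 in KO. The groups overlapped, and the difference of 0.30 ± 0.17 did not pass the test (limma adjusted p = 0.239). KO replicate 1 was the highest array, and the difference was 0.12 without it. With the sample signal alone, scaled to each array's 75th percentile, the difference was 0.40, and with median centring 0.63. The change of Sgk1 was lower than that of Tsc22d3 by 2.02, as the per-array differences of their ratios came to -0.06, -0.15 and 0.27 in WT against -2.18, -1.97 and -1.83 in KO (95% interval of the difference -2.46 to -1.57, exact permutation p = 0.1, the smallest possible, adjusted p = 0.167 over the 5 pairs).

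**Figure D2:**
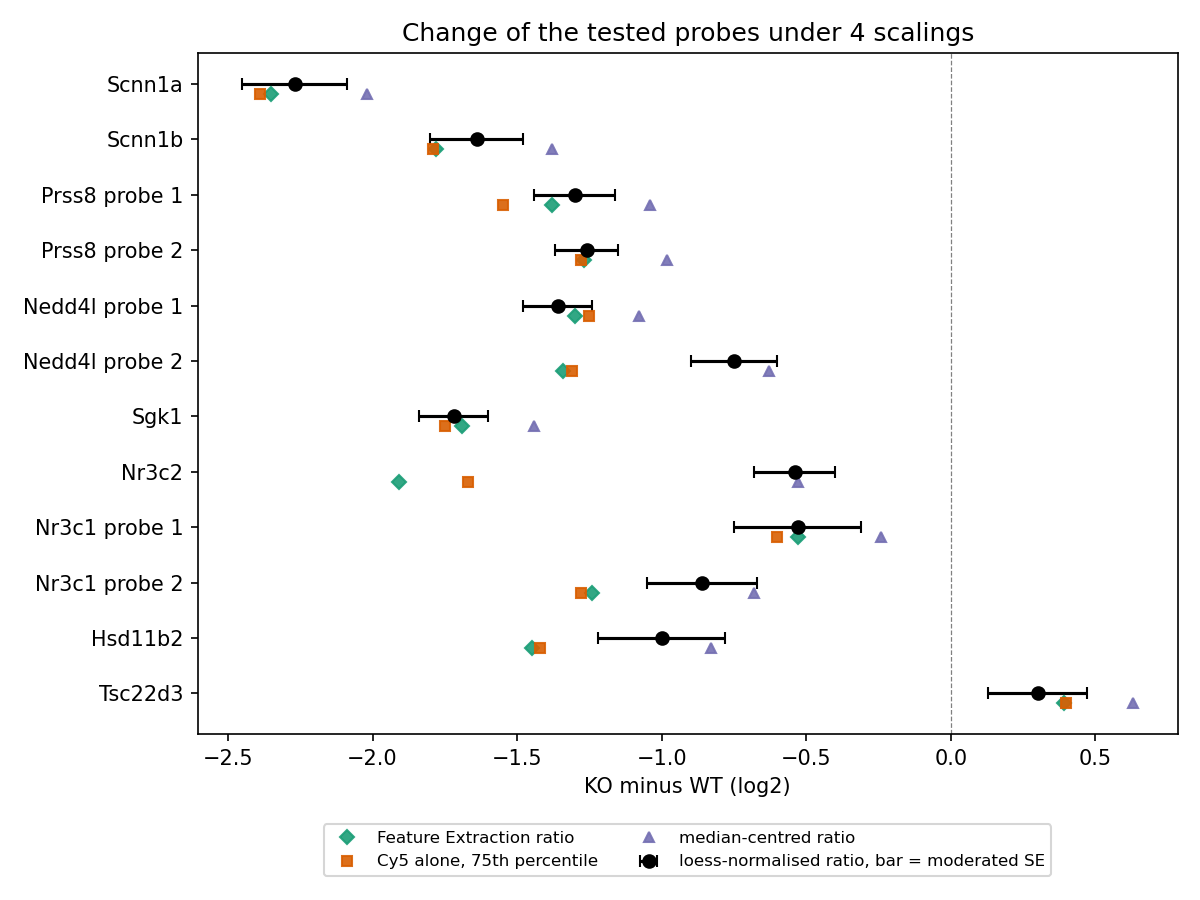
KO minus WT difference (log2) of the 12 tested probes, with the loess value and its moderated SE (n = 3 arrays per group) in black and the values from 3 other scalings beside it. The dim probes Nr3c2 and Nedd4l probe 2 move from -0.54 and -0.75 to -1.91 and -1.34 with the Feature Extraction ratio, and no probe changes sign under these scalings.

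Since the same WT1 RNA was hybridised in Cy3 on every array, the reference channel shows how well each spot repeats. Scaled to the 75th percentile of its channel on each array, the Cy3 signal of the 12 tested probes had an SD over the 6 arrays of 0.03 to 0.22 on the log2 scale, and its mean on KO arrays minus its mean on WT arrays lay between -0.17 and 0.24. The extremes of 0.22 and 0.24 belonged to the dim Nr3c2 probe. For Scnn1a the scaled Cy3 signal ranged from 3.04 to 3.20 over the 6 arrays, while its scaled Cy5 signal was 3.04, 2.71 and 3.40 in WT and 0.65, 0.42 and 0.91 in KO. For Sgk1 Cy3 ranged from 3.59 to 3.80, and Cy5 was 3.93, 3.80 and 3.95 in WT and 2.19, 2.04 and 2.18 in KO. The separation of the groups was thus in the sample channel. The unscaled processed signals had a Cy5 median over the tested probes of 200.3 to 217.4 on WT arrays and 388.1 to 443.4 on KO arrays. Cy3 medians, from WT1 RNA throughout, were at the same level, 200.5 to 217.8 on WT arrays and 386.3 to 439.1 on KO arrays. This split followed the groups, so its source was not tested and cannot be told apart from genotype. Unscaled signals of different arrays are therefore not on 1 scale. Nr3c1 probe 1, for example, had processed Cy5 signals of 3176, 2494 and 2802 in WT and 2726, 4567 and 3915 in KO, although its ratios were lower in KO.

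**Figure D3:**
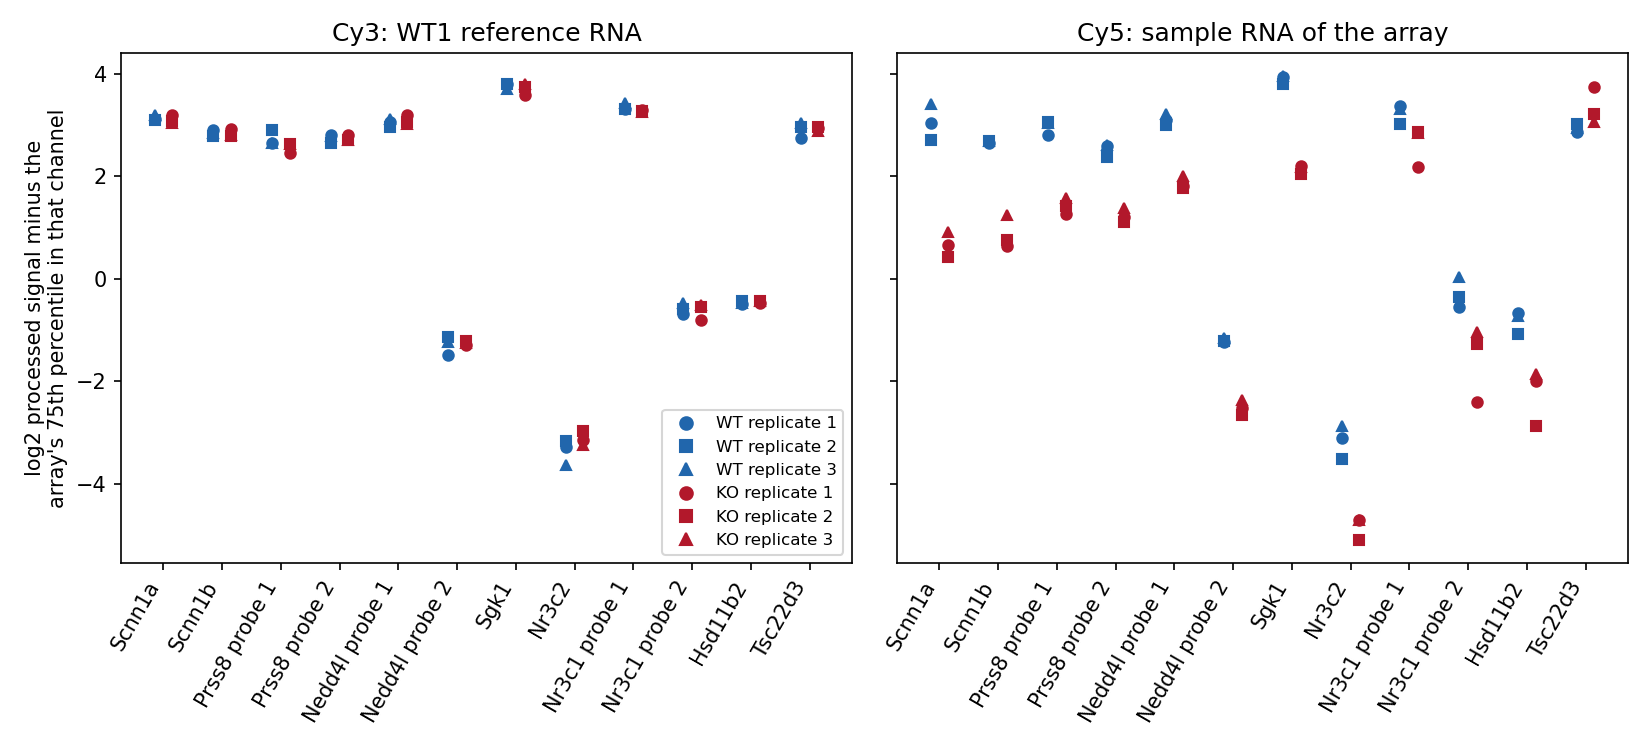
Log2 processed signal of each tested probe minus the array's 75th percentile in the same channel, for the Cy3 reference (left) and the Cy5 sample (right), 1 point per array. Cy3 values of WT and KO arrays lie together, as for Scnn1a between 3.04 and 3.20, while Cy5 values separate, from a mean of 3.05 in WT to 0.66 in KO for Scnn1a.

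Markers of several cell types moved on the same arrays. The marker lists were chosen with earlier results of these data known, so their counts beside the shares of the array are descriptions. Of 20 principal cell markers other than the 10 genes, 19 were called lower and 0 higher, with a median of -1.85, where 18.6% of 14752 named genes (each by its brightest tested probe) were called lower, 13.8% higher and the median was -0.02. All 20 were well above background on every array, including Aqp2. The same held for all 14 proximal tubule and all 12 endothelium markers, so detection alone does not tell which cell types the samples held. The median ratio of the principal cell list lay between -0.09 and 0.13 on WT arrays and between -2.13 and -1.67 on KO arrays. Its summed normalised Cy5 signal lay between 138636 and 154498 in WT and between 32407 and 45155 in KO. Intercalated cell markers were lower as well (18 of 18, median -2.37). So were those of the loop of Henle and distal tubule (14 of 14, median -2.02), which belong to the nephron and not to the duct. The nephron progenitor and renal stroma lists, also from outside the duct, went the other way. Of their tested markers 11 of 12 and 14 of 17 rose and 0 fell in each, with medians of 2.28 and 1.86. Their summed signals were 16841 to 22368 and 20271 to 38478 in WT against 54269 to 82569 and 77800 to 100188 in KO. Tbx18 of the stroma list did not pass the filter. Of ureteric epithelium markers 11 of 18 were lower and 0 higher (median -0.94), of endothelium markers 11 of 12 lower (median -1.01), of immune cell markers 8 of 11 higher and 1 lower (median 0.99), of proximal tubule markers 4 of 14 lower (median -0.38) and of podocyte markers 2 of 8 higher (median 0.19). Lists from outside the duct thus moved in both directions, since most endothelium markers, also from outside it, were lower. In RNA from many cells, fewer cells of a type and less RNA per cell cannot be told apart. The part of cell composition in the values of the 10 genes was not tested.

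Set against the median of the 20 principal cell markers on the same array, the genes differed in how closely they followed the markers. Scnn1a minus that median was -0.14, -0.33 and 0.01 in WT and -0.35, -0.67 and -0.46 in KO, a difference of -0.34 (95% interval -0.72 to 0.04). Scnn1b and Sgk1 differed by 0.28 (0.00 to 0.57) and 0.21 (-0.37 to 0.79) on this scale. The mean change of these 3 genes lay within 0.34 of the markers' own, although Sgk1 on KO replicate 1 stood at 0.66. Nedd4l probe 1 was 0.06, 0.14 and 0.00 in WT and 0.65, 0.65 and 0.61 in KO, a difference of 0.57 (0.44 to 0.69), and Prss8 gave 0.63 (0.50 to 0.75) and 0.67 (0.47 to 0.87) by its probes. Hsd11b2 gave 0.93 (0.22 to 1.64), but 0.63 with the Feature Extraction ratios (exact permutation p = 0.3). Nr3c1 gave 1.40 (0.85 to 1.95) and 1.07 (0.71 to 1.42) by its probes. Nedd4l probe 2 gave 1.18, but 0.74 with the Feature Extraction ratios. Nr3c2, at background in KO, gave 1.39 after loess, 0.17 with the Feature Extraction ratios (exact permutation p = 0.7) and 0.65 with Cy5 alone, so no place relative to the markers can be given for it. Tsc22d3 was the farthest, at 0.19, 0.14 and -0.26 in WT and 2.83, 2.12 and 1.80 in KO, a difference of 2.23 (1.29 to 3.16). Exact permutation p was 0.1, the smallest possible, for 11 of the 12 probes and 0.6 for Sgk1 (adjusted p = 0.109 and 0.6). With Cy5 alone the values for Scnn1a, Scnn1b and Sgk1 were -0.08, 0.52 and 0.56, so their order against the markers depends on the scaling.

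**Figure D4:**
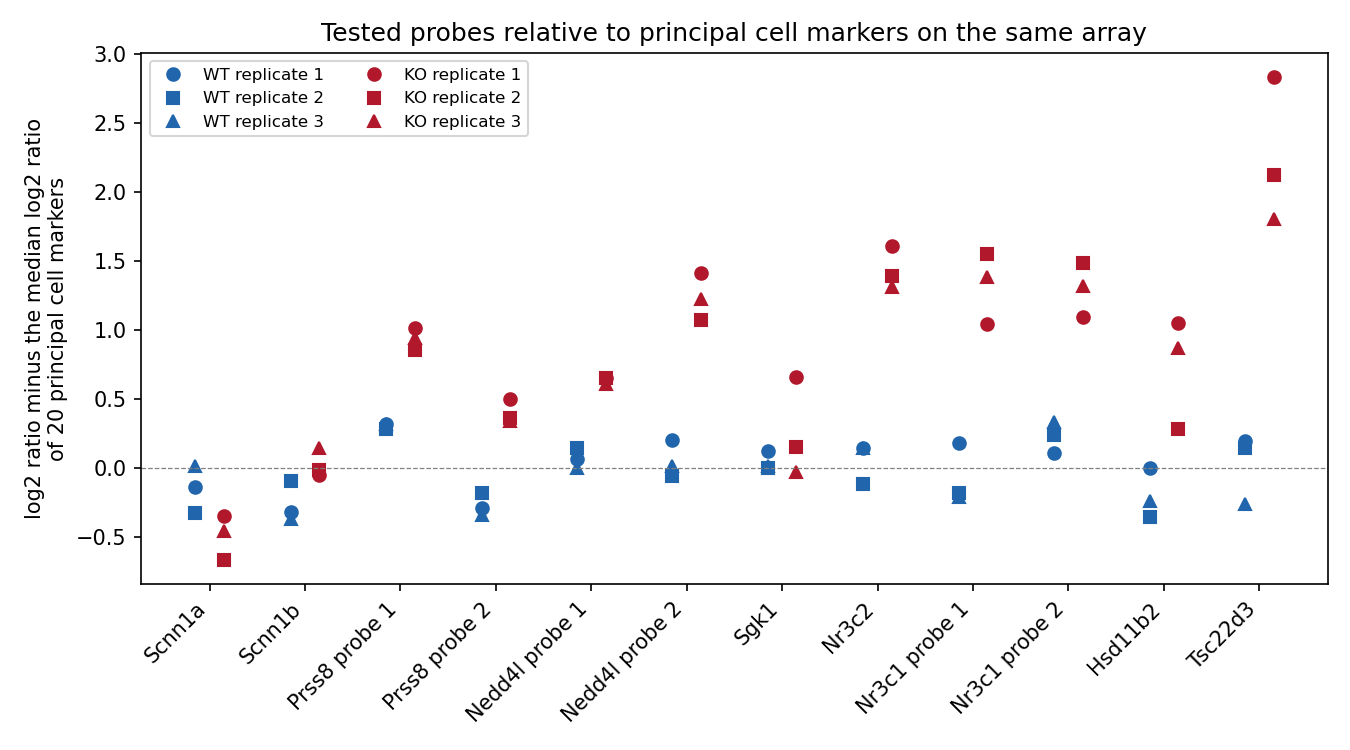
Log2 ratio of each tested probe minus the median log2 ratio of 20 principal cell markers on the same array, 1 point per array. Scnn1b lies between -0.05 and 0.14 in KO, Scnn1a between -0.67 and -0.35 and Sgk1 between -0.03 and 0.66, while Tsc22d3 lies between 1.80 and 2.83 in KO and between -0.26 and 0.19 in WT.

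Genes around the channel were read from lists of pathway members. These lists too were chosen with earlier results known, so their counts are descriptions. Of 10 further channel proteases and protease inhibitors 9 were tested (Plg was not well above background on enough arrays), of which 7 were lower and 1 higher in KO, with a median of -1.32, beside 18.6% lower and 13.8% higher over all named genes. The protease Tmprss2 differed by -2.21 ± 0.16, the membrane protease inhibitor Spint1 by -1.47 ± 0.12 and the protease St14, which acts in a cascade with prostasin, by -1.32 ± 0.13 (limma adjusted p = 0.000357, 0.000376 and 0.000554). The single higher gene was Serpine2, protease nexin, an inhibitor of serine proteases (1.32 ± 0.12, limma adjusted p = 0.000452). Proteases and their inhibitors were thus both among the lower genes, and the inhibitors Spint1 and Serpine2 moved in opposite directions.

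Among 20 genes of channel ubiquitylation and its kinases 5 were lower, 1 was higher and 14 did not pass, with a median of -0.08. Over all named genes 18.6% were lower and 13.8% higher, so the share called in this list was near that of the array. Usp2, a deubiquitylase induced by aldosterone, and Sgk2, a relative of Sgk1, both differed by -1.75 (SE 0.12 and 0.20, limma adjusted p = 0.000357 and 0.000863), and the kinase Wnk4 by -1.41 ± 0.17 (limma adjusted p = 0.00111). Nedd4, the close relative of Nedd4l, rose by 0.75 ± 0.13 (limma adjusted p = 0.00468), with ratios opposite in direction to those of Nedd4l. Wnk1 and Sgk3, named after their values were seen, completed the lower genes at -0.98 ± 0.23 and -0.47 ± 0.12, and a second Sgk3 probe gave 0.04. The general kinases and 14-3-3 genes of that list were among those that did not pass.

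Of 13 corticosteroid receptor chaperones, coregulators and enzymes 0 were called in either direction by limma, and 0 had an unadjusted p under 0.05. The smallest p belonged to the coactivator Ncoa1 (-0.32 ± 0.16), the co-chaperone Fkbp4 (-0.21 ± 0.11), the chaperone Hsp90aa1 (0.27 ± 0.15) and H6pd, which supplies the cofactor of Hsd11b1 (0.27 ± 0.18). Their limma adjusted p ran from 0.168 to 0.295.

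Genes known to be induced by corticosteroids divided. Of 18 tested 12 were lower, 1 was higher and 5 did not pass, with a median of -0.81, beside 18.6% lower and 13.8% higher over all named genes. Fxyd4, a small membrane protein of the collecting duct, differed by -2.58 ± 0.17, Usp2 by -1.75 ± 0.12 and the metallothionein Mt2 by -2.13 ± 0.23 (limma adjusted p = 0.000357 for Fxyd4 and Usp2 and 0.000804 for Mt2). The 5 that did not pass, named after their values were seen, included the co-chaperone Fkbp5 (0.18 ± 0.14), the clock gene Per1 (0.05 ± 0.19) and the transcription factor Zbtb16 (0.12 ± 0.26). Other glucocorticoid-induced genes of the list were lower, among them the transcription factor Klf9 (-1.16 ± 0.25), the kinase Pdk4 (-1.02 ± 0.14), the phosphatase Dusp1 (-0.87 ± 0.12), the transcription factor Cebpd (-0.65 ± 0.18) and Errfi1 (-0.36 ± 0.10), also named after their values were seen. Cnksr3 gave -0.05 ± 0.11. The single higher gene was Sult1d1, a sulfotransferase (0.71 ± 0.21, limma adjusted p = 0.0435). Fxyd4 is also a principal cell marker, and Fkbp5, Usp2 and Cnksr3 stand in a second pathway list.

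**Figure D5:**
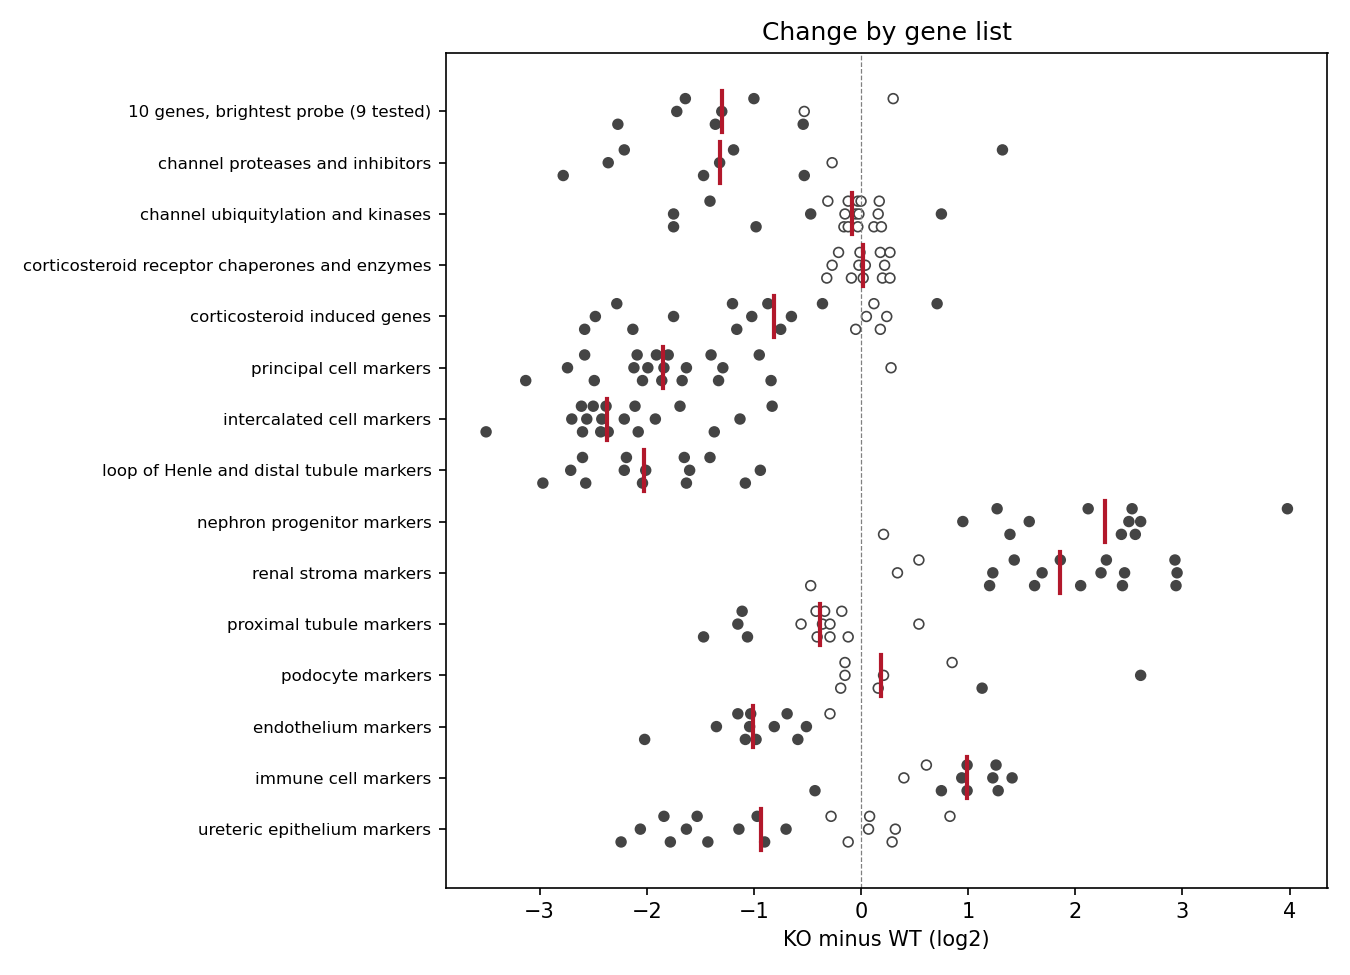
KO minus WT difference (log2) of each gene by its brightest tested probe, for the 10 genes and for each list, with filled points for adjusted p under 0.05 over all probes tested and a red bar at the list median. The medians run from -2.37 for intercalated cell markers to 2.28 for nephron progenitor markers, with -1.30 for the 9 tested of the 10 genes and 0.02 for the receptor chaperones and enzymes.

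The genes whose 6 ratios were nearest to those of each member are given by their root mean square difference over the 6 arrays. Nearest to Scnn1a was the kidney cadherin Cdh16 (0.07 on the log2 scale), with ratios of -0.19, -0.38 and 0.04 in WT and -2.59, -2.55 and -2.12 in KO, followed by Bsnd, a chloride channel subunit, and Inpp5j (0.13 each). The water channel Aqp2 was second nearest to Scnn1b (0.17), after AA986860 (0.14) and before Npb (0.18). For Sgk1 they were Cpt1b, Tdrp and Tmem30b (0.07, 0.11 and 0.12), and for Nedd4l probe 1 Nrcam and Dapl1 (0.06 each) and Kdf1 (0.07). For Prss8 probe 1 they were Lmo1, Rab15 and Aass (0.09, 0.11 and 0.13). Nr3c1 probe 1 was nearest to Hoxa7 (0.09), whose ratio was likewise lowest on KO replicate 1 (-1.19, against -0.28 and -0.33), and then to Parm1 and Tmem242 (0.12 each). For Tsc22d3 they were Gkap1, Szrd1 and AF067063 (0.05, 0.06 and 0.07), for Nr3c2 Churc1, Tusc2 and Kbtbd11 (0.08 each) and for Hsd11b2 Pitpnm3, Cyp2j6 and Eps8 (0.15, 0.17 and 0.18).

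The arrays themselves were not equally alike. Over all 29808 tested probes the correlation of ratios was 0.92 between KO replicates 2 and 3 but 0.73 between KO replicate 1 and each of them, as a description of arrays that share probes and reference. Between WT arrays it was 0.31, 0.32 and 0.49. The mean absolute log2 difference was 0.16 to 0.18 between WT arrays, 0.31 between KO replicate 1 and each other KO array and 0.15 between KO replicates 2 and 3. In WT replicates 1 to 3 the stroma list had medians of 0.13, -0.60 and -0.80 and the proximal tubule list 0.07, -0.92 and -0.18. The principal cell list spanned -0.09 to 0.13 there. In Cy5, 49.8% to 52.7% of spots were well above background on WT arrays and 56.6% to 57.5% on KO arrays. Without KO replicate 1 the count of member probes called lower stayed at 10. It was 8 without WT replicate 1 and 7 without WT replicate 3, and 6 with slide row as a block, where only WT replicate 1, the one WT array in the row of the KO arrays, informs the difference. The 6 probes called there were those of Scnn1a, Scnn1b and Sgk1, both of Prss8 and probe 1 of Nedd4l.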

How the data were processed

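The authors' deposited scanner files hold, for each channel, the median intensities of spot and local background, processed intensities (background-subtracted and dye-normalised) and the log10 ratio of processed Cy5 over Cy3, per the file headers, which name Agilent Feature Extraction 10.7.3.1 (6.1 in the submitters' processing notes) and labelling from 0.5 µg of RNA, per the labels' protocols. In the deposited series matrix each log10 ratio lies within 0.00499 of that in the scanner file, Cy5 over Cy3, with a median of 0 per column. No source used here names further centring.

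From these, median intensities were corrected by normexp (offset 50) and loess-normalised within arrays with 3671 control spots at weight 0, and outlier-marked spots (196 to 403 non-control spots per array) were left out. Replicate spots were averaged, and 117 probes lacking a value on some array were dropped. Of the probes, 27509 were named by matching accessions to RefSeq GRCm38.p6, and probes without a name were fitted with them. Named and unnamed probes well above background in Cy5 on at least 3 of 6 arrays (29808) were tested with limma 3.58.1 in R 4.3.3, 2-sided, with Benjamini-Hochberg adjustment. Log2 ratios are used throughout, and the deposited log10 ratios were turned into log2. Pair and marker-relative differences used exact 2-sided permutation over arrays. Fits were tested on simulated data. The array number limits precision. The fold of Cy5 signals for Nr3c2 was taken from loess and Aquantile values per channel. Alternatives were other scalings, filters, weights, blocks and leaving out single arrays.

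Named genes were all members, the 4 genes of smallest p per pathway list and the 3 nearest genes by ratio, leaving out names that end in Rik or are Gm, LOC, AI, AW or BC with digits. A few list genes are not reported here by name. Members and lists were chosen with earlier results of these data known.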

Additional observations from a re-analysis of the deposited data

How the results depend on the processing

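Of 188 comparisons of a single member probe with its value under an alternative, 175 kept direction and side of the threshold, 13 kept direction but lost the call and none reversed. The 13 were those of Nr3c2, Nr3c1 probe 2, Hsd11b2 and Nedd4l probe 2 given above. Probes changed numbered 7567 (4248 lower, 3319 higher) and ranged from 3821 to 9483 when single arrays were left out (2353 to 5158 lower, 1468 to 4325 higher), with the lowest counts without WT replicate 3 and then WT replicate 1 (4883). With slide row as a block 2193 changed (1508 lower, 685 higher) and 6 member probes were lower. Median centring moved the median of all probes from 0.00 to 0.22 and left 1367 lower and 4637 higher (77.2% of calls higher, against 43.9%), with 8 member probes still lower, and the slide row block gave 31.2% higher. Member probes called lower ranged from 7 to 10 when single arrays were left out, and no alternative called one higher. For Nr3c2, at background in KO, the pair differences have no firm value: that with Hsd11b2, 0.45 after loess, reversed to -0.46 with Feature Extraction ratios and to -0.25 with Cy5 alone, and that with Nr3c1, -0.01 after loess, was -1.38 and -1.06 under these and ranged from -0.24 to 0.13 without single arrays (0.13, 0.08 and 0.10 without KO replicate 2, KO replicate 3 and WT replicate 3). The replicate numbers of the labels only name the samples (correlations of same-numbered deviations 0.14, 0.07 and 0.19), and with the replicate number as a block 7243 probes changed, 10 member probes among them, all lower. Signal close to background limits Scnn1g and Nr3c2.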
